A study of Mus musculus with 6 samples.

Results

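The genes described here are 9 genes whose mutation in people causes polycystic kidney or polycystic liver disease: Pkd1, Pkd2, Pkhd1, Dzip1l, Ganab, Prkcsh, Alg9, Dnajb11 and Sec63. They were chosen by name, with no measured value in the rule but with earlier results of these data known. Each of the 9 names matched 1 row among the 20624 genes of the expression table. Total RNA was sequenced after depletion of ribosomal RNA from mDCT15 cells, a mouse kidney cell line labelled as distal convoluted tubule cells. The samples were 3 of Pkd1-/- cells, made by CRISPR/Cas9 editing, and 3 of wild type cells, named as biological replicates, and both genotypes were grown in the same medium with fetal bovine serum and with no treatment. The genotype field of the labels calls the edited cells a knockdown while their titles and the study's methods call them Pkd1-/-, and the study's methods as read here do not say whether the edited line is 1 clone.

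In the kidney tubule, polycystin-1 and polycystin-2 form a receptor and channel complex that is found on the primary cilium, a sensory projection of the cell surface. Both are glycoproteins, as is fibrocystin, and they have to be made, folded and sugar-trimmed in the endoplasmic reticulum (ER) before they reach the surface. Several genes of inherited cystic disease encode parts of that ER machinery, which transfers sugar trees to new proteins, trims them, and guides folding through chaperones.

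The values are the authors' mean normalized count per gene, that is, the count after scaling for library size, averaged over all 6 samples of both genotypes. The mean has no SD or n here, values of single samples were not analysed, and the depth per sample is unknown. Pkd1 could therefore not be checked in each sample of the edited cells, no gene was compared between genotypes, and a level below cannot be assigned to 1 genotype. To set genes beside each other, each mean was divided by the length of the gene's exons in kilobases, which gives a mean count per kb, and a percentile is the share of the 20122 genes with a gene model that lie lower on that scale. The exon lengths came from another annotation release than the authors' read counts, so counts and lengths can cover different exons.

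All 9 genes had a mean normalized count of at least 100, and 8 of them, all but Alg9, had at least 1000. Among all genes in the table, 10382 (50.3%) had at least 100 and 4320 (20.9%) had at least 1000. The median mean count per kb was 294.9 for the 9 genes and 28.61 for all genes. Together the 9 genes held 30435 of the 16746088 summed mean normalized counts, or 0.182%. Their order per kb ran from Ganab through Prkcsh, Dnajb11, Pkhd1, Sec63, Pkd2, Pkd1 and Dzip1l to Alg9. ER genes took the first 3 places, the fifth and the last. Pkhd1, Pkd2 and Pkd1 were at places 4, 6 and 7, and at 7, 3 and 8 with the coding length. With no spread between samples, it cannot be said which neighbours in this order differ.

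**Figure D1:**
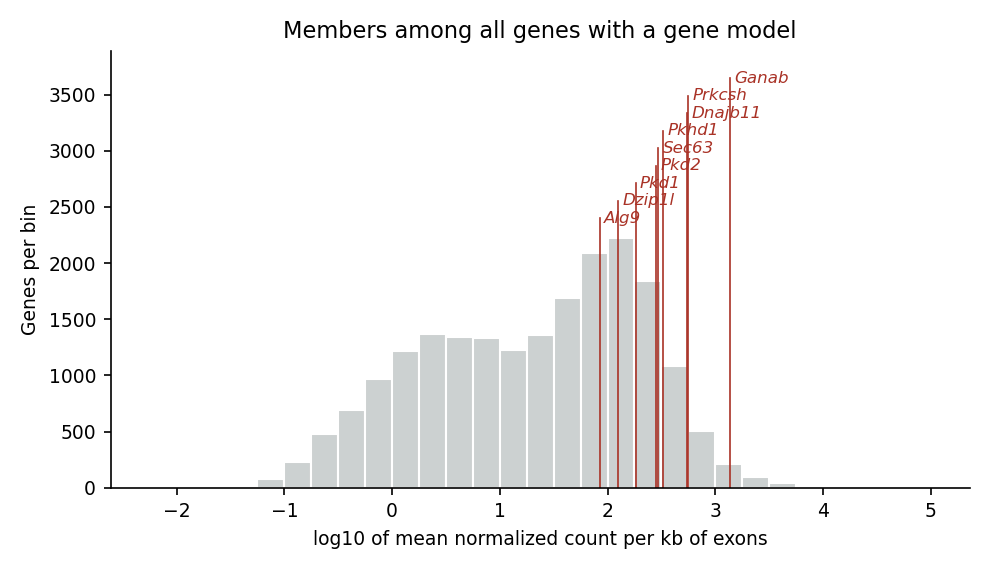
Histogram of log10 of the mean count per kb of exons for the 20122 genes with a gene model (grey bars, genes per bin), with a red line at the level of each of the 9 cystic disease genes. All 9 lines stand right of the median of all genes, 28.61 per kb, and Ganab lies farthest right.

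Pkd1 encodes polycystin-1, the large receptor-like membrane protein that is mutated in most families with autosomal dominant polycystic kidney disease, and it is the gene edited in this study. It lies on chromosome 17 at 24768808 to 24815482 of GRCm39, plus strand, and its canonical transcript joins 46 exons into an mRNA with 4293 codons. Its mean normalized count was 3175. Spread over 17415 bases of exon, this came to 182.3 per kb, the seventh level of the 9 and above 81.5% of genes. The long mRNA collected many reads, so that Pkd1 was above 94.9% of all 20624 genes by count before division by length. The last 700 bases of the gene, 24814783 to 24815482, overlap the end of Tsc2, the tuberous sclerosis gene that is transcribed toward it on the opposite strand. The overlap is 4.02% of the exon length of Pkd1, and Tsc2 itself had a mean of 3343, close to that of Pkd1. Whether reads of both genes were separated there depends on the strand setting, which the study's methods give only as the default of the counting program. The exons of Pkd2, Pkhd1 and Dnajb11 overlap antisense noncoding genes by 166, 442 and 56 bases, and none of these noncoding genes had a row in the table analysed here. The exons of Ganab, Prkcsh, Sec63 and Dzip1l overlap the exons of no other gene. In 641 pairs of a long noncoding RNA antisense to a protein-coding gene with a mean of at least 1000, the median level of the noncoding RNA per kb was 0.874% of its partner's. Pairs were taken by overlap of whole spans, introns included, and only noncoding RNAs with a row were used. The value therefore does not show whether reads of shared exons were separated by strand.

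The start of Pkd1 is shown because it is the targeted gene and its start window holds GC boxes, the letters GGGCGG bound by Sp1-like factors. The stretch starts 250 bases before the canonical start, chr17:24768674-24768807 of GRCm39, plus strand, and ends where the first exon of another Pkd1 transcript begins. Capitals mark a GC box at positions -209 to -204.
Pkd1: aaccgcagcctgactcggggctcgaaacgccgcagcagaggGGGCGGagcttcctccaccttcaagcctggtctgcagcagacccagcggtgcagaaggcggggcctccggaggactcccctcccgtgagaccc
The full window from 250 bases before to 50 after the start held 5 GC boxes on both strands and 18 CpG dinucleotides. That of Sec63 held 4 GC boxes. A GC box was in 42.5% of the 21757 windows of protein-coding genes, and the median window had 11 CpG dinucleotides (quartiles 4 and 21).

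Pkd2 encodes polycystin-2, the cation channel subunit that pairs with polycystin-1. The gene is on chromosome 5 at 104607240 to 104654573, plus strand, with 15 exons in the canonical transcript and 966 codons. The mean normalized count was 4723, or 281.7 per kb, above 88.7% of genes. Per kb, the level of Pkd1 was 0.65 times that of Pkd2. This ratio depends on the length that is used, because 25 annotated transcripts spread the exons of Pkd2 over 16770 bases while its canonical mRNA has 6106. With the canonical mRNA the ratio was 0.29, with the longest transcript 0.5 and with the coding length 0.15, so that Pkd1 was the lower of the pair on every scale. The mean of Pkd1 includes the samples in which it was edited. This ratio and those to Pkd1 below therefore describe both genotypes together and not wild type cells alone. The start window of Pkd2 held 8 CpG dinucleotides and 0 GC boxes, against 18 and 5 for Pkd1.

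Pkhd1 encodes fibrocystin, a large single-pass membrane protein of the cilium, which is mutated in autosomal recessive polycystic kidney disease. It is the longest of the 9 genes, with 560.3 kb on chromosome 1 from 20128003 to 20688288, and the only one of them on the minus strand. The canonical transcript joins 67 exons with 4059 codons, and these exons take up 2.31% of that span. The mean normalized count was 4668, or 326.2 per kb, above 90.6% of genes. Its level per kb was 1.79 times that of Pkd1, and between 1.56 and 1.79 times over the 4 lengths. Against Pkd2 the order turned with the length: 1.16 times higher over all exons, but 0.8 times with the longest transcript and 0.47 times with the canonical one.

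The start window of Pkhd1 held 4 CpG dinucleotides and 0 GC boxes, fewer CpG dinucleotides than those of Pkd1 and Pkd2.

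Dzip1l encodes a protein of the transition zone, the gate at the base of the cilium, and its loss causes a recessive form of polycystic kidney disease. It lies on chromosome 9 at 99511549 to 99554129, plus strand, with 17 exons in the canonical transcript and 773 codons. Dzip1l had a mean normalized count of 1376, or 126.2 per kb, the eighth level of the 9 and above 74.5% of genes. Dzip1, its closest relative and also a protein of the cilium base, had a similar mean of 1436. Per kb the ratio of Dzip1l to Dzip1 was 1.56 over all exons, 0.98 with the longest transcript and 0.65 with the canonical one, so that their order was not fixed.

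The nearest relatives of the polycystins and of fibrocystin were at or near the floor of the table. Of the 8 relatives listed, which include Dzip1 as the relative of Dzip1l, 5 had a row in the table analysed here. Pkd1l1, Pkd1l2 and Pkdrej had no row. Apart from Dzip1, the mean normalized count was 1.478 for Pkd1l3, 0.9419 for Pkd2l1, 0.8572 for Pkd2l2 and 1.46 for Pkhd1l1. Pkd1l3, Pkd2l1 and Pkd2l2 are polycystin paralogs, and Pkhd1l1 is the paralog of fibrocystin. Among the relatives with a row, each of Pkd1, Pkd2 and Pkhd1 was therefore the one member of its family with a mean above 2, where the lowest mean in the whole table was 0.618. Only 1 of the 5 relatives, Dzip1, reached a mean of 100.

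Ganab encodes the catalytic subunit of glucosidase II, the ER enzyme that removes the inner glucoses from new N-glycans, and mutations in it cause dominant polycystic kidney and liver disease. Its locus is on chromosome 19 at 8875417 to 8894107, plus strand, with 24 exons in the canonical transcript and 944 codons. The mean normalized count of 8218, or 1375 per kb, was the highest of the 9 on both scales. Of the 20122 genes, 243 lay above it per kb, which puts it above 98.8%. Ganab stayed first under each of the 4 lengths.

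Prkcsh encodes the other subunit of glucosidase II, which has no catalytic site and keeps the enzyme in the ER, and it is mutated in polycystic liver disease. The gene is on chromosome 9 at 21914068 to 21925544, plus strand, with 18 exons and 528 codons. Prkcsh had a mean normalized count of 2949, or 557.5 per kb, above 95.6% of genes. The catalytic subunit stood above its partner by 2.47 times per kb over all exons, and by 1.65 times with the canonical transcripts.

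The glucosidase II subunits act within a cycle of glucose trimming and lectin chaperones, for which 9 other genes were listed. All 9 had a mean of at least 100, and their median was 355.6 per kb, against 28.61 for all genes. The highest were Calr with 5244 per kb and Canx with 2193, which encode the lectin chaperones calreticulin and calnexin, and Pdia3 with 1724, which encodes the disulfide isomerase that works with them. Ganab stood below these 3 and above the other 6. The lowest over all exons were Uggt2 with 34.92 per kb, a relative of the enzyme that adds glucose back, Edem1 with 240.4, which helps to send misfolded glycoproteins to degradation, and Mogs with 329.5. Mogs encodes glucosidase I, which removes the outermost glucose just before glucosidase II acts, and the level of Ganab per kb was 4.17 times that of Mogs over all exons and between 5.7 and 6.73 times with the other lengths.

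Alg9 encodes a mannosyltransferase that extends the sugar tree while it is still built on its lipid carrier, and it is mutated in a form of cystic kidney disease. It lies on chromosome 9 at 50686227 to 50755784, plus strand, with 15 exons in the canonical transcript and 611 codons. Its mean normalized count of 436.5 was the lowest of the 9, as was its level of 84.82 per kb, above 66.9% of genes. Alg9 was last under each of the 4 lengths. Its start overlaps Cfap68 on the opposite strand over 592 bases, or 11.5% of its exon length, and Cfap68 had a mean of 100.4.

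The 13 listed genes of N-glycan assembly all had a mean of at least 100, with a median of 68.15 per kb. Alg9, the lowest of the 9 cystic disease genes, lay above this median at 84.82, but below it with the canonical transcripts, at 146.3 against 178.8. Over all exons, the highest of the 13 were Alg10b with 585.4 per kb, which encodes the enzyme that adds the last glucose, Alg2 with 151.8, and Dpagt1 with 138.5, which encodes the enzyme of the first step. Among the lowest were Alg1 with 40.39 and Alg8 with 40.81, whereas with the canonical transcripts Alg1 was at the median of 178.8 and the lowest were Alg14 with 90.49 and Alg12 with 108.8. Alg12, the mannosyltransferase that acts between the mannose additions made by ALG9, lay at 51.85 per kb, and the ratio of Alg9 to Alg12 was 1.64.

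Dnajb11 encodes an ER J protein, a co-chaperone that hands unfolded proteins to the chaperone BiP, and it is mutated in an atypical dominant form of polycystic kidney disease. The locus is on chromosome 16 at 22676587 to 22698384, plus strand, with 10 exons in the canonical transcript and 358 codons, the shortest protein of the 9. The mean normalized count was 2019, or 551.3 per kb, above 95.5% of genes and next to Prkcsh in the order. Hspa5, the gene of BiP, stood 4.76 times higher per kb over all exons, at 2625, and 2.92 times higher with the canonical transcripts.

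The start of Dnajb11 is shown because it holds a motif of the unfolded protein response, the program that raises chaperone production when the ER is loaded. The stretch runs from 100 bases before the canonical start to 24 after it, chr16:22676489-22676612 of GRCm39, plus strand. Capitals mark the ER stress element II, ATTGGNCCACG, at positions 14 to 24 after the start.
Dnajb11: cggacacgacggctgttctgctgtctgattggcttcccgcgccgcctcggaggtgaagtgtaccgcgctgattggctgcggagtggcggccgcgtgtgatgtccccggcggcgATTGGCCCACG
This motif was in 15 (0.0689%) of the 21757 windows, among them those of Dnajb11 with 1 copy and Hyou1, another ER chaperone gene, with 2. Its first 5 letters are also a CCAAT box read on the other strand, of which Dnajb11 had 6 in its window, while 39.9% of windows had at least 1. The longer ER stress element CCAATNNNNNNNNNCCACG was in 0.124% of windows, including those of Hspa5, Calr and Canx and of 0 of the 9 genes. The window of Dnajb11 also had the most CpG dinucleotides of the 9, with 35. A match gives the letters only and does not show that a factor binds there.

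Sec63 encodes another J protein, part of the translocon through which new proteins enter the ER, and is mutated in polycystic liver disease. This gene is on chromosome 10 at 42637461 to 42720218, plus strand, with 21 exons in the canonical transcript and 760 codons. Sec63 had a mean normalized count of 2869, or 294.9 per kb, above 89.3% of genes and the middle value of the 9. Sec62, its partner at the translocon, was at 358.6 per kb, and the ratio of Sec63 to Sec62 was 0.82. Sec61a1, the gene of the channel itself, stood 2.36 times above Sec63.

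Of the 12 listed genes of the translocon and of BiP with its J proteins, all had a mean of at least 100, with a median of 329.5 per kb. Dnajb11 lay above and Sec63 below this median. The highest were Hspa5 with 2625 per kb, Hyou1 with 895.5 and Sec61a1 with 694.6. The lowest over all exons were Sil1 with 16.3, which encodes a nucleotide exchange factor of BiP, and the J protein genes Dnajc1 with 43.45 and Dnajb9 with 63.19, while with the canonical transcripts Sec61g was lowest with 93.44.

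**Figure D2:**
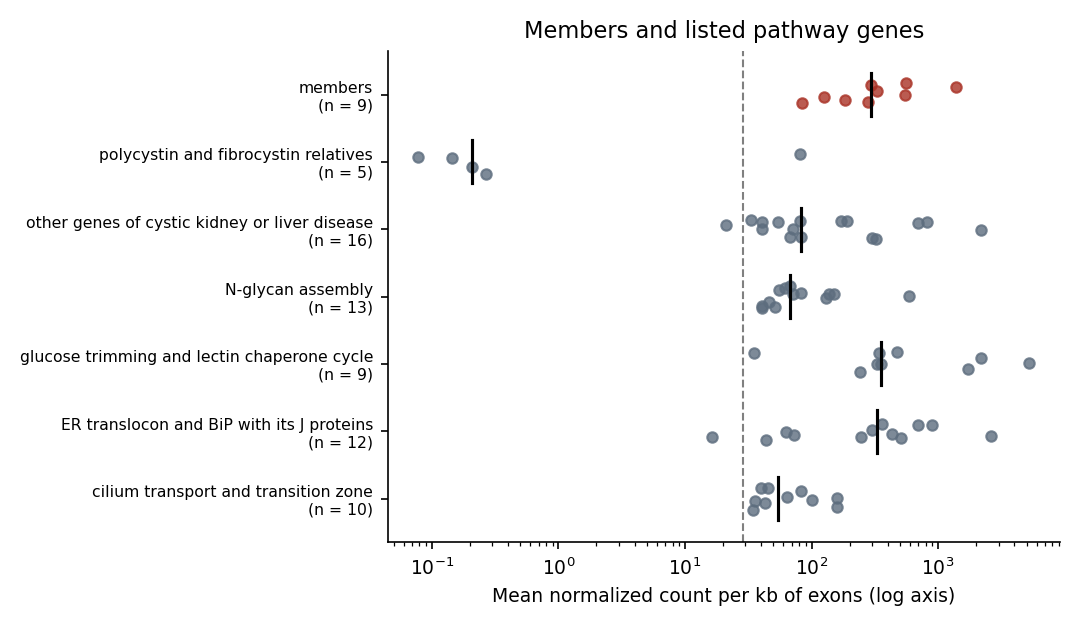
Mean count per kb of exons (log axis) of the 9 cystic disease genes (red) and of 6 lists of related genes (grey), 1 point a gene, with a black bar at each list's median and a dashed line at the median of all genes, 28.61. The 9 genes have a median of 294.9, the glucose trimming list 355.6 and the ER translocon list 329.5, while 4 of the 5 relatives lie near the left edge.

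Among 17 other genes linked to cystic kidney or liver disease, 16 had a row in the table and 15 had a mean of at least 100, with a median of 82.02 per kb. The highest were Bicc1 with 2201 per kb, an RNA-binding protein whose loss gives cystic kidneys in mice, and, among others, Sec61a1 with 694.6. Per kb, Bicc1 stood 12.07 times above Pkd1 over all exons, 15.63 times with the canonical transcripts and 27.01 times with the coding length. The lowest were Muc1 with 20.99, Invs with 33.26 and Alg8 with 40.81. Of 11 listed genes of cilium transport and of the transition zone, 11 had a mean of at least 100, and the 10 with a gene model had a median of 54.76 per kb. Over all exons, Kif3a, a motor subunit of cilium transport, led with 160.1, followed by Ift20 with 159.7 and Cep290 with 101.1. With the canonical transcripts, B9d1 led with 420.9, followed by Ift20 with 320.7 and Kif3a with 224.4. The lowest over all exons were Mks1 with 34.7, Tmem216 with 35.99 and Ift88 with 39.74. Dzip1l, at 126.2 per kb, lay below Kif3a and Ift20 and above Cep290, and with the canonical transcripts, at 190.7, below B9d1 as well. Tctn2, with a mean of 1029, had no gene model under its identifier.

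The level per kb of a gene with many transcripts depends on what is taken as its length. Over the 4 lengths, Ganab, Prkcsh and Alg9 kept the first, second and last place. The level of Pkd2 moved most, from 281.7 per kb over all exons to 1605 over the coding part, and from the sixth place to the third. Pkd1 and Pkhd1, whose mRNAs are mostly coding, moved least, Pkd1 from 182.3 to 246.5 and Pkhd1 from 326.2 to 383.4. Sec63, with 6074 bases of canonical mRNA for 760 codons, moved from 294.9 to 1253.

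**Figure D3:**
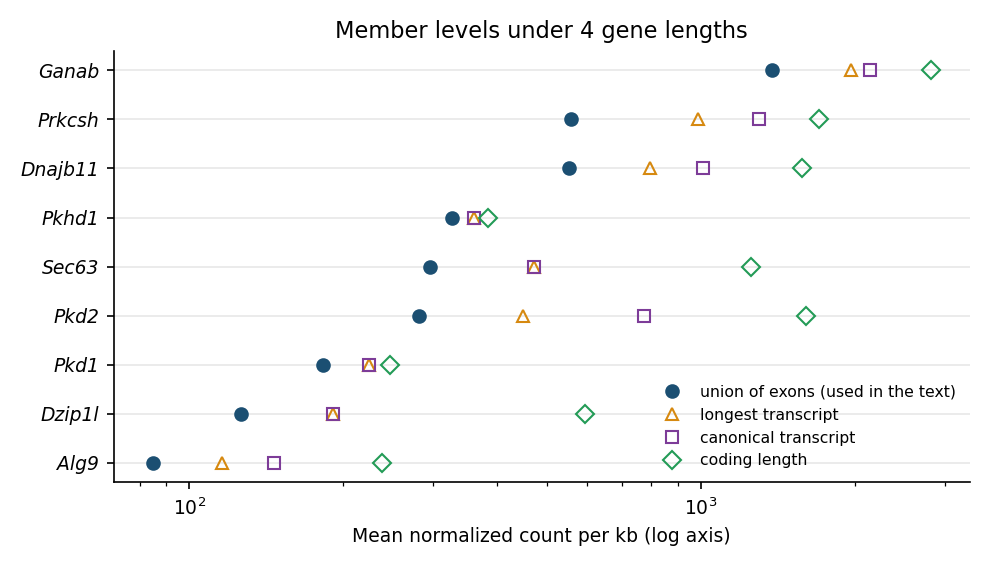
Mean normalized count per kb (log axis) of each of the 9 genes, with 4 symbols for the 4 gene lengths by which the authors' mean was divided. Ganab is highest and Alg9 lowest under each length, and the symbols of Pkd2 spread from 281.7 to 1605 while those of Pkd1 stay between 182.3 and 246.5.

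The start windows also differed among the 9 genes. Those of Dnajb11, Prkcsh, Ganab, Sec63 and Pkd1 had 35, 25, 24, 21 and 18 CpG dinucleotides, all above the median of 11 for protein-coding genes. Those of Pkd2, Dzip1l, Alg9 and Pkhd1 had 8, 7, 4 and 4. The same 5 genes with more CpG dinucleotides had at least 1 GC box and the other 4 had 0, where 42.5% of all windows had a GC box. The letters of a GC box hold a CpG dinucleotide, so these counts are not independent. About as many windows lie above a median as below it, so 5 of 9 above it does not set these genes apart. The share with a GC box, 5 of 9, was not tested against that of all windows. The TATA box letters TATAAA were in 13.2% of all windows and in 0 of the 9, too few genes to tell these shares apart. With RefSeq's start sites on GRCm38.p6 in place of the GENCODE ones, the windows of Pkd1 and Ganab were identical and the ER stress element II of Dnajb11 was found again, but the 3 GC boxes of Prkcsh were not. Dzip1l had 2 RefSeq windows, with 7 and 12 CpG dinucleotides, and the second lay above the GENCODE median of 11.

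The 9 levels belong to a cell line in which most listed markers of its labelled segment were low or had no row. Of 9 listed markers of the distal convoluted tubule, 4 had a row in the table and 1 had a mean of at least 100. Wnk4, a kinase that regulates salt transport there, had a mean of 413, Egf had 48.3, the magnesium channel gene Trpm6 had 29.6 and Klhl3 had 5.7. Slc12a3, the thiazide-sensitive salt transporter that defines this segment, had no row in the table analysed here, as had Pvalb, Calb1, Slc8a1 and Trpv5. All 4 listed proximal tubule markers had a row, with means of 11355 for Aqp1 and 8826 for Lrp2 but 2.77 for Slc5a2 and 2.04 for Slc34a1. Of the 3 fibroblast markers, Col1a1 had 201 but Pdgfra and Col1a2 had 4.12 and 2.71. Of the 4 epithelial markers, Epcam had 115 and Krt8 had 0.98, and Cdh1 and Krt18 had no row in the table analysed here. Pecam1 of endothelium, Ptprc of leukocytes and Scnn1g of principal cells had 4.68, 5.36 and 0.618. Fewer cells of a type and less RNA per cell cannot be told apart in such bulk samples, and the part of any other cell type in the levels of the 9 genes was not tested.

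**Figure D4:**
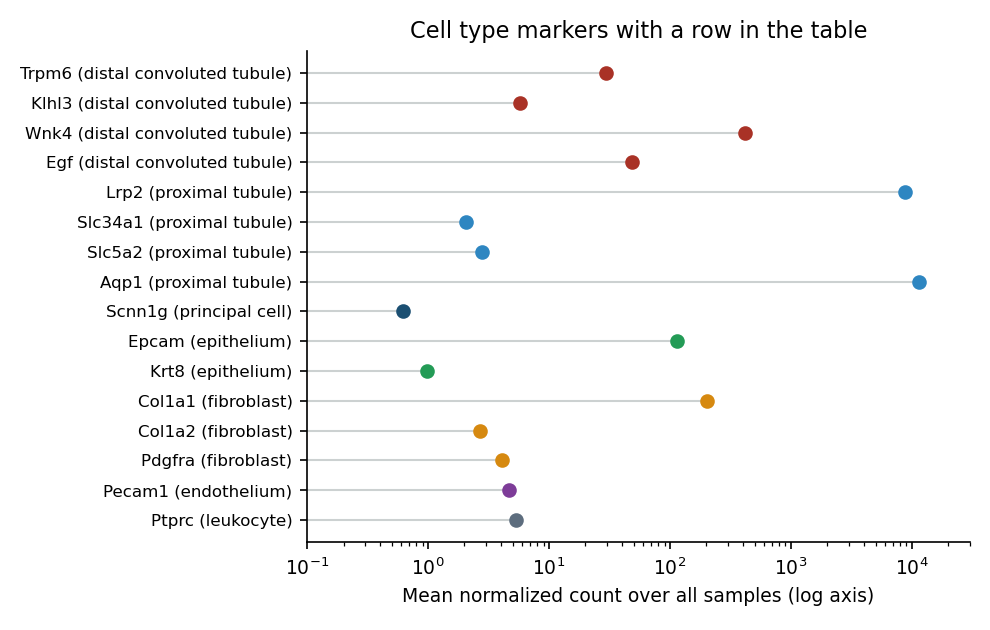
Mean normalized count over all 6 samples (log axis) of each listed cell type marker that had a row, coloured by cell type. Aqp1 and Lrp2 stand highest at 11355 and 8826, and Wnk4, the highest marker of the distal convoluted tubule, is at 413.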

How the data were processed

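RNA sequencing of 3 Pkd1-/- and 3 wild type mDCT15 samples was analysed. According to the study's methods, the authors trimmed reads with Trim Galore 0.4.5, mapped them to GRCm39 (Ensembl annotation) with STAR 2.7.5a, counted them with HTSeq 0.11.0 at default parameters, and then ran DESeq2 1.22.0 under R 3.5.3. The deposited mean normalized count is a signal, the authors' mean over all 6 samples after scaling for library size. The 5 other numeric columns hold the authors' own comparison (fold change, its standard error, statistic, p-value and adjusted p-value) and were not used. A genotype test had been planned for counts of single samples, and none was made because the values used are a mean over all samples. The study states a minimum of 5 counts per sample and gene, but the table also holds rows with means below that, the lowest 0.618.

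Identifiers were matched to GENCODE on GRCm39, and 20122 (97.6%) of 20624 were found. This was not the Ensembl release with which the authors counted reads. Means were divided by the union of exons (Python 3.11.15, pandas 2.3.3, numpy 2.4.6, matplotlib 3.10.9). Start windows of 300 bases (250 before and 50 after the canonical start) were read with pysam 0.24.0 and searched on both strands. RefSeq windows of GRCm38.p6 served for counts only. The named genes are the 9 genes, the 3 highest and 3 lowest of each list per kb, overlapping neighbours, partners in the same step and listed markers, and some genes that this rule names are not reported here. The genes and lists were chosen with earlier results of these data known. The percentiles, the union of exon lengths and the motif search were checked on constructed input. Alternatives were other lengths, other sets of ranked genes, other minimum means and other start sites.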

Additional observations from a re-analysis of the deposited data

How the results depend on the processing

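Division by another length moved the levels in one direction, since each other length is shorter. The median of the 9 genes, 294.9 per kb over all exons, was 448.6 with the longest transcript, 1253 with the coding length and 472.4 with the canonical transcript. The log2 ratio per kb of Pkd1 to Pkd2 was -0.63 over all exons and -1.0, -2.7 and -1.79 with these lengths, and that of Ganab to Prkcsh was 1.3 and then 0.99, 0.73 and 0.72. The log2 ratio of Pkhd1 to Pkd2 reversed, from 0.21 to -0.31, -2.07 and -1.1. In the order of the 9 genes, 6 kept their place with the longest transcript, 4 with the coding length and 7 with the canonical transcript. The canonical transcript and the RefSeq start sites were chosen after seeing the data. The percentiles, from 66.9 to 98.8, ran from 51.2 to 98.2 when only means of 10 or more were ranked and from 53.8 to 98.3 among protein-coding genes. The percentile of Pkd1, 81.5, was 72.6 and 74.0 in these settings. With the canonical transcript it was 73.7, while that of Pkhd1 fell from 90.6 to 82.9 and that of Pkd2 rose from 88.7 to 93.4. All 9 genes passed a minimum mean of 10 and 8 passed 1000. No paired analysis was possible because the values used are the authors' mean over all 6 samples, which carries no replicate numbers. For the same reason the alternatives planned for a genotype test (another count tool, other size factors, no filter on low counts, leaving out each replicate) were not run, and depth and spread between samples limit every level by an unknown amount.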
